A study of Homo sapiens with 9 samples.

Results

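TXNIP, ARRDC4, ARRDC2 and ARRDC3, 4 genes of the alpha-arrestin family, were followed across U2OS cells together with MLXIP, MLXIPL and MLX, which encode the glucose-sensing transcription factors MondoA and ChREBP and their partner MLX. These 7 genes were found by symbol among the 70116 gene IDs of a count table of polyadenylated RNA. Of them 6, all but MLXIPL, were among the 19408 genes that passed the low-count filter. The set was selected on an earlier reading of the same libraries, in which TXNIP stood among the genes with the largest difference on palbociclib in wild-type cells. The members' values in that contrast are therefore given as a description, with no test, while other genes were tested in it. The 9 libraries formed 3 groups of 3: PERK KO cells on palbociclib for 4 days, WT cells on palbociclib for 4 days, and WT cells on vehicle. U2OS is an established human osteosarcoma line, and the KO cells were derived from it with CRISPR/Cas9 directed at PERK, the endoplasmic reticulum kinase encoded by EIF2AK3 that phosphorylates the translation factor eIF2alpha. Palbociclib inhibits CDK4 and CDK6, the cyclin D kinases that drive entry into S phase. The labels do not say whether the KO cells are 1 clone, or whether the 3 set numbers that the groups share stand for separate cultures. Every p-value here thus rests only on how these libraries vary, which may be technical. KO cells on vehicle were not analysed here, and whether the response to the drug differed between genotypes was not tested.

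MondoA and ChREBP are held outside the nucleus when glucose is scarce, and a build-up of phosphorylated hexose lets them enter it as dimers with MLX. There they bind carbohydrate response elements, paired E-box-like half-sites in the promoters of their target genes, of which TXNIP and ARRDC4 are the best known. TXNIP binds and inhibits thioredoxin and, like ARRDC4, lowers glucose uptake by promoting the removal of glucose transporters from the cell surface, so that the pathway acts as a feedback on glucose entry. Alpha-arrestins are adaptors that bring ubiquitin ligases of the NEDD4 family to membrane proteins.

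The promoters of TXNIP and ARRDC4 are shown because these were the 2 members with the widest range of counts over the groups. Each line gives the 250 bases before the transcription start, 5′ to 3′, from RefSeq on GRCh38.p14. The TXNIP stretch is chr1:145996580-145996829 on the minus strand and the ARRDC4 stretch is chr15:97960453-97960702 on the plus strand. Capitals mark the half-sites, CACGTG, and CCAAT read on either strand (ATTGG on the strand shown).
TXNIP: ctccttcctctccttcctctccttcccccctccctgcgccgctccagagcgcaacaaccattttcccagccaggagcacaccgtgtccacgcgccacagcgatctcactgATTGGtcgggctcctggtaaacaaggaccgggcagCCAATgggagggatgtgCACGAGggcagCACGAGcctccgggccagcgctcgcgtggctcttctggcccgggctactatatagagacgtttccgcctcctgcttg
ARRDC4: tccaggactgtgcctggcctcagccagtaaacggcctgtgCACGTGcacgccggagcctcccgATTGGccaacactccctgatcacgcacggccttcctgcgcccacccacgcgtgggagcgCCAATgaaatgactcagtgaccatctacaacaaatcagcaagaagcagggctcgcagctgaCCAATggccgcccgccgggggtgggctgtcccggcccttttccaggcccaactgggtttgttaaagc

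The TXNIP promoter held a pair of CACGTG-like half-sites 5 bases apart, from -88 to -72 relative to the first transcribed base, with 2 mismatches over the 12 half-site bases. Beside it lay CCAAT from -105 to -101 and, on the other strand, from -140 to -136. Windows of 300 bases, 250 before and 50 after the start, were searched for the pair with up to 2 mismatches, a motif that reads the same on both strands. Of all windows in the RefSeq table (35116), 1.01% held it. The ARRDC4 promoter held no such pair but had CACGTG from -210 to -205, a motif in 7.26% of windows, and 3 copies of CCAAT, a motif in 34.6% of windows on either strand. These copies ran from -128 to -124, from -67 to -63 and, on the other strand, from -187 to -183. Among the other members, MLX had CACGTG from -50 to -45, and ARRDC2, ARRDC3, MLXIP and MLX had CCAAT once each. The ARRDC2 copy lay in the second of its windows. MLXIPL, the first window listed for ARRDC2 and the second windows listed for TXNIP and ARRDC3 matched none of the 3 motifs. CACGTG is contained in an exact half-site pair, and a match describes letters, not binding.

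Total counts ran from 33674039 to 42577874 per library, and all values below are CPM, counts scaled to a common library total with TMM factors of 0.977 to 1.01. EIF2AK3, the targeted gene, had 19.7, 18.7 and 17.8 CPM in PERK KO cells on palbociclib, against 35.7, 36.8 and 31.8 CPM in WT cells on palbociclib. The KO level was 53.9% of the WT level (edgeR quasi-likelihood test, adjusted p = 5.98e-09), and the edited position is not given in the labels. The bone and mesenchymal genes VIM, SPARC, COL1A1 and RUNX2 were counted in every library, whereas SP7, an osteoblast factor, was at 0 throughout. The rest of that marker list was low. ALPL averaged 5.03 CPM in KO cells on palbociclib, 7.93 CPM in WT cells on palbociclib and 2.78 CPM in WT cells on vehicle. In the same order COL1A2 averaged 2.87, 2.19 and 1.42 CPM. BGLAP averaged 0.162, 0.0374 and 0.169 CPM and did not pass the low-count filter. The 10 markers of epithelial, blood and endothelial cells summed to 10.3 to 11.6 CPM in KO cells on palbociclib, 13.2 to 14.0 CPM in WT cells on palbociclib and 10.4 to 11.3 CPM in WT cells on vehicle. CD3E and HBB were at 0 throughout. Their part in the results below was not tested.

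Over the 6 tested members, 3 were called between KO and WT cells on palbociclib, ARRDC4 and MLX higher and ARRDC2 lower, and 4 with the set as a block. Over all genes the same test called 27.9% (14.9% higher, 13.0% lower), and 36.4% with the block (19.5% higher). The ranges of ARRDC4, ARRDC2 and MLX did not overlap between these groups, as those of 41.3% of all genes did not.

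TXNIP and ARRDC4 mRNA stood highest in PERK KO cells on palbociclib and lowest in WT cells on vehicle, and ARRDC4 was called higher in the KO cells than in WT cells on the drug. TXNIP (ENSG00000265972.6, chr1:145992435-145996600, minus strand) had 64.4, 74.1 and 101 CPM in sets 1, 2 and 3 of KO cells on palbociclib, 35.1, 48.4 and 77.9 CPM in WT cells on palbociclib, and 5.72, 9.17 and 14.0 CPM in WT cells on vehicle. The KO and WT ranges on palbociclib overlapped, while all 6 palbociclib libraries lay above the 3 vehicle libraries. TXNIP averaged 79.7 ± 19 CPM in KO cells on palbociclib and 53.8 ± 22 CPM in WT cells on palbociclib (SD, n = 3 each). The log2 fold change of 0.57 ± 0.38 (SE), 1.48-fold, did not pass the test (edgeR quasi-likelihood test, Benjamini-Hochberg adjusted p = 0.336). With the set number as a block, which compares the genotypes within sets, it was 0.61 ± 0.085 and TXNIP was called higher in the KO (adjusted p = 0.000135). Leaving out WT palbociclib set 3 gave 0.92 (adjusted p = 0.133), KO set 3 gave 0.36 (adjusted p = 0.626) and WT palbociclib set 1 gave 0.34 (adjusted p = 0.617), all without the block.

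ARRDC4 (ENSG00000140450.9, chr15:97960698-97973838, plus strand) had 27.8, 36.3 and 45.0 CPM in sets 1, 2 and 3 of KO cells on palbociclib, 14.6, 18.2 and 26.3 CPM in WT cells on palbociclib, and 4.2, 5.19 and 5.56 CPM in WT cells on vehicle. No 2 of the 3 groups overlapped. The mean was 36.4 ± 8.6 CPM in KO cells on palbociclib and 19.7 ± 6.0 CPM in WT cells on palbociclib (SD, n = 3 each), a log2 fold change of 0.88 ± 0.26 (SE), 1.84-fold (edgeR, adjusted p = 0.0487). With the set as a block the change was 0.89 ± 0.065 (adjusted p = 1e-13). Without the block the call sat at the threshold. It was lost without KO set 2 (adjusted p = 0.11) or KO set 3 (0.70, adjusted p = 0.128). The same held without WT palbociclib set 1 (0.71, adjusted p = 0.105) or set 2 (0.83, adjusted p = 0.143). It was lost too without vehicle set 1 (adjusted p = 0.0663), set 2 (adjusted p = 0.0788) or set 3 (adjusted p = 0.0753), which enter only the shared estimate of the spread. The call held without KO set 1 or WT palbociclib set 3. This contrast shares the WT palbociclib libraries with the one on which TXNIP was selected.

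**Figure D1:**
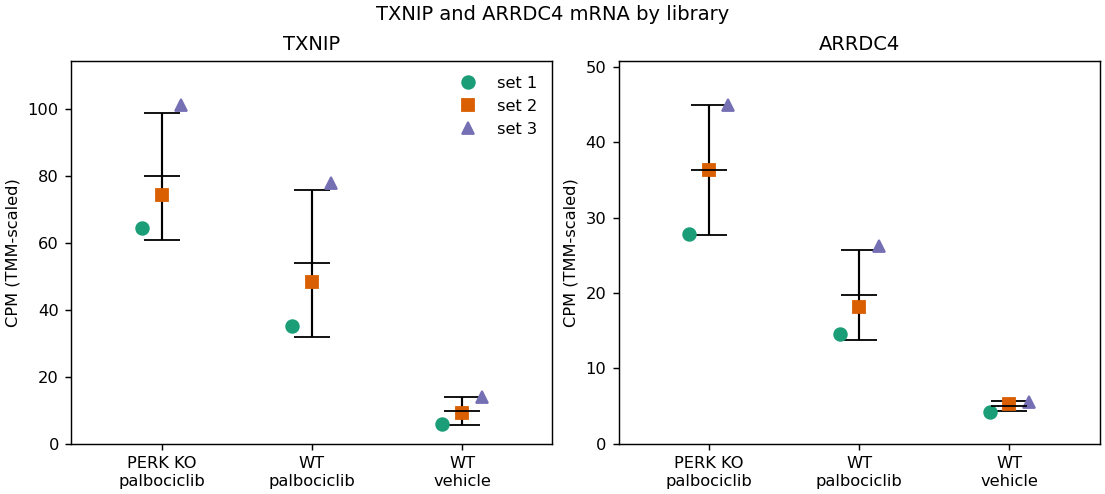
TXNIP (left) and ARRDC4 (right) mRNA in TMM-scaled CPM in each of the 9 libraries, by group, with symbols for the 3 set numbers and bars for the mean ± SD of 3 libraries. ARRDC4 separates the 3 groups, TXNIP overlaps between PERK KO (64.4 to 101 CPM) and WT cells (35.1 to 77.9 CPM) on palbociclib, and set 3 is the highest library of each group for both genes.

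In WT cells on palbociclib TXNIP averaged 53.8 ± 22 CPM, against 9.62 ± 4.1 CPM in WT cells on vehicle, a 5.64-fold difference (log2 fold change 2.50 ± 0.44, SE). ARRDC4 averaged 19.7 ± 6.0 CPM in WT cells on palbociclib and 4.98 ± 0.7 CPM in WT cells on vehicle, 3.97-fold (1.99 ± 0.31). The other 4 tested members had smaller differences in this contrast: the log2 fold change was 0.14 ± 0.072 for MLXIP, 0.01 ± 0.086 for ARRDC2, -0.09 ± 0.11 for ARRDC3 and -0.19 ± 0.054 for MLX. In bulk RNA, fewer cells with a transcript and less transcript per cell cannot be told apart. KO cells on palbociclib held 8.35 times the TXNIP of WT cells on vehicle (3.06 ± 0.44) and 7.31 times the ARRDC4 (2.87 ± 0.30), a comparison that shares libraries with both others. Of all 19408 genes, 43.7% were called between WT palbociclib and WT vehicle (21.3% higher, 22.3% lower), and the ranges of 51.6% did not overlap. TXNIP, ARRDC4 and MLX were the members whose ranges did not overlap in that contrast.

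The level of TXNIP also differed between set numbers. Set 3 held 1.56 times the TXNIP of set 1 in KO cells on palbociclib, 2.22 times in WT cells on palbociclib and 2.44 times in WT cells on vehicle. The ratio of KO to WT on palbociclib taken within a set was 1.84, 1.53 and 1.29 in sets 1, 2 and 3 for TXNIP and 1.91, 1.99 and 1.71 for ARRDC4. All 6 ratios lay above 1. The ratio of WT palbociclib to WT vehicle was 6.13, 5.28 and 5.58 for TXNIP and 3.46, 3.51 and 4.74 for ARRDC4. The ratio of KO palbociclib to WT vehicle was 11.3, 8.08 and 7.21 for TXNIP and 6.62, 6.99 and 8.1 for ARRDC4.

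Between libraries of 1 group, TXNIP varied more than nearly all other genes. Its mean coefficient of variation within groups was 35.7%, and 6 of the 11129 tested genes with a mean of at least 5 CPM had a higher one. ARRDC4 had 22.8%, with 35 genes higher, and ARRDC3 had 9.86%, with 1074 genes higher. MLXIP (5.14%) and ARRDC2 (5.02%) lay just above the median of 4.95% over these genes, and MLX (2.72%) lay below it. Set 1 was the lowest and set 3 the highest library in all 3 groups for TXNIP, ARRDC4 and ARRDC3, 3 of the 6 members at this level, against 2.57% of the 11129 genes. The summed CPM of the 13 mitochondrially encoded mRNAs, a sign of RNA handling, was 40900, 33000 and 39300 in sets 1, 2 and 3 of KO cells on palbociclib, 34500, 34000 and 42100 in WT cells on palbociclib, and 36200, 28200 and 37400 in WT cells on vehicle. Set 2 was the lowest there in each group, by little in WT cells on palbociclib, and set 3 was the highest in both WT groups. Whether RNA handling had a part in the order of TXNIP and ARRDC4 was not tested.

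**Figure D2:**
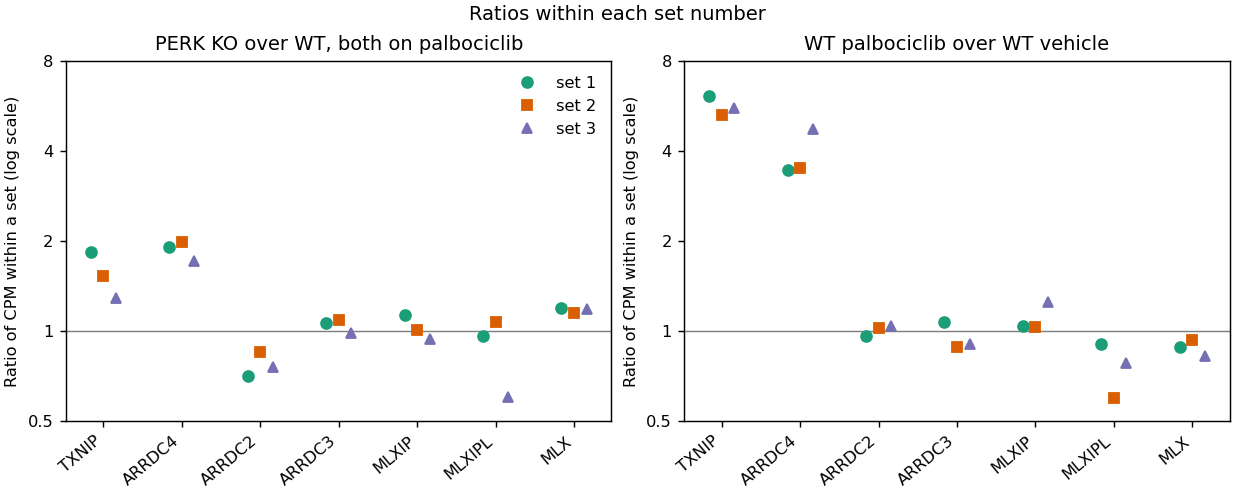
Ratio of CPM within each set number for the 7 genes, on a log2-spaced axis, for PERK KO over WT cells on palbociclib (left) and WT palbociclib over WT vehicle (right), 1 symbol per set. ARRDC4 (1.71 to 1.99) and TXNIP (1.29 to 1.84) lie above 1 in all 3 sets on the left, ARRDC2 lies below 1 (0.704 to 0.847), and on the right only TXNIP and ARRDC4 lie above 3.

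The remaining alpha-arrestins did not follow TXNIP and ARRDC4 across the groups. ARRDC2 (ENSG00000105643.11, chr19:18001132-18014102, plus strand) had 8.08, 9.27 and 8.61 CPM in KO cells on palbociclib, 11.5, 10.9 and 11.4 CPM in WT cells on palbociclib, and 11.9, 10.8 and 11.0 CPM in WT cells on vehicle. Every KO library lay below every WT library. ARRDC2 fell in the KO by 0.38 ± 0.087 (SE) on the log2 scale relative to WT cells on palbociclib, to 76.6% of their level (edgeR, adjusted p = 0.00231). Its within-set ratios were 0.704, 0.847 and 0.754. ARRDC3 (ENSG00000113369.9, chr5:91368724-91383359, minus strand), an adaptor in the ubiquitination of the beta2-adrenergic receptor, had 38.6, 41.3 and 42.3 CPM in KO cells on palbociclib, 36.5, 38.0 and 42.9 CPM in WT cells on palbociclib, and 34.1, 42.9 and 47.6 CPM in WT cells on vehicle. The groups overlapped, and the difference between KO and WT cells on palbociclib was 0.06 ± 0.11 (edgeR, adjusted p = 0.745). ARRDC3-AS1 overlaps ARRDC3 on the opposite strand with a mean of 27.8 counts, against 1540 for ARRDC3. The strand setting of the counting is not given in the sources used here.

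Among the sensors, MLX was called higher in KO cells and MondoA was not called. MLXIP, the gene of MondoA (ENSG00000175727.15, chr12:122078722-122147347, plus strand), had 20.6, 19.8 and 19.9 CPM in KO cells on palbociclib, 18.2, 19.5 and 21.2 CPM in WT cells on palbociclib, and 17.5, 18.9 and 17.0 CPM in WT cells on vehicle. The KO values lay within the range of the WT palbociclib values, and the log2 fold change was 0.03 ± 0.072 (edgeR, adjusted p = 0.796). MLXIPL, the gene of ChREBP (ENSG00000009950.16, chr7:73593194-73624543, minus strand), had 8, 7 and 6 counts in KO cells on palbociclib, 7, 7 and 9 in WT cells on palbociclib, and 9, 13 and 11 in WT cells on vehicle. These counts were too few for the test. The gene averaged 0.181 ± 0.034 CPM in KO cells on palbociclib, 0.211 ± 0.024 CPM in WT cells on palbociclib and 0.282 ± 0.047 CPM in WT cells on vehicle. MLX (ENSG00000108788.12, chr17:42567068-42573239, plus strand), the dimerization partner of both factors, had 46.8, 45.6 and 46.7 CPM in KO cells on palbociclib, 39.5, 39.8 and 39.7 CPM in WT cells on palbociclib, and 44.6, 42.7 and 48.3 CPM in WT cells on vehicle. The WT palbociclib libraries lay below all others, and the KO and vehicle ranges overlapped.

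**Figure D3:**
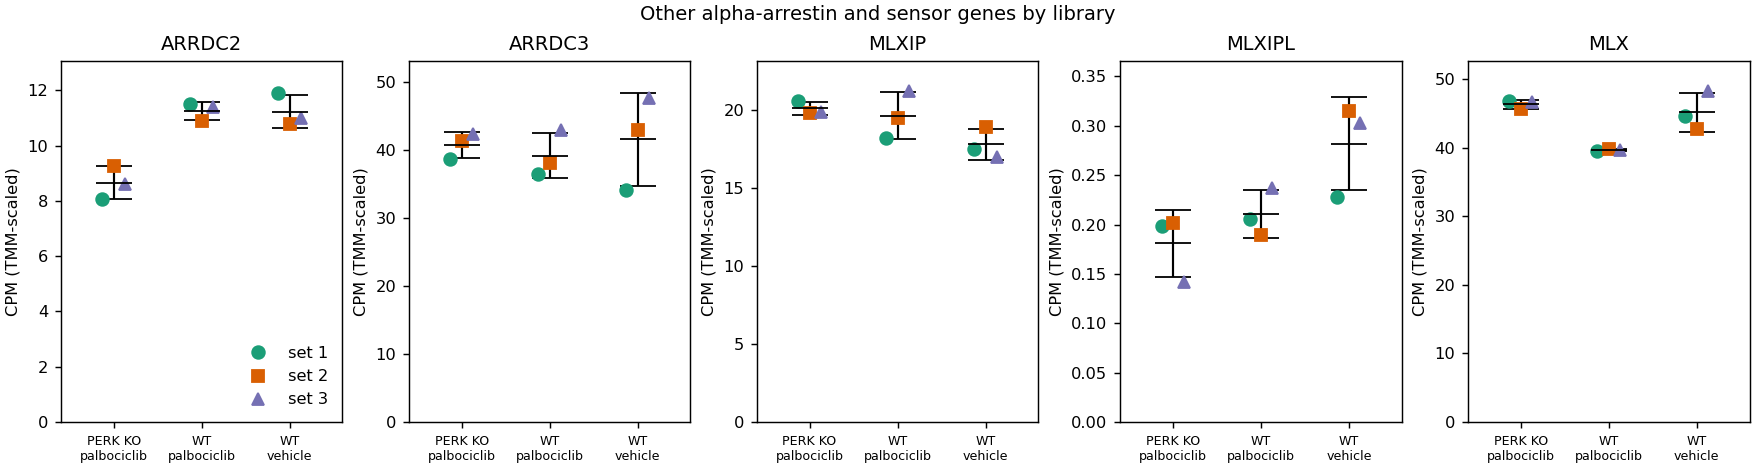
ARRDC2, ARRDC3, MLXIP, MLXIPL and MLX mRNA in TMM-scaled CPM in each of the 9 libraries, by group, with symbols for the 3 set numbers and bars for the mean ± SD of 3 libraries; each panel has its own axis from 0. ARRDC2 is lowest in PERK KO cells on palbociclib (8.08 to 9.27 CPM), MLX is lowest in WT cells on palbociclib (39.5 to 39.8 CPM), and MLXIPL stays below 0.32 CPM.

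MLX averaged 46.4 ± 0.68 CPM in KO cells on palbociclib and 39.7 ± 0.17 CPM in WT cells on palbociclib (SD, n = 3 each), a log2 fold change of 0.23 ± 0.054 (SE), 1.17-fold (edgeR, adjusted p = 0.00356). The within-set ratios were 1.19, 1.15 and 1.18. Its neighbours on chromosome 17 moved with it. Of 189 other tested genes within 5 Mb on either side of MLX, 94 were called higher and 5 lower in the KO. Over all genes 14.9% were called higher and 13.0% lower. The median log2 fold change of the 189 neighbours was 0.30, and MLX minus this median was -0.07. PSMC3IP, a neighbour that overlaps MLX on the opposite strand, had a mean of 499 counts, against 1670 for MLX. Reads from the stretch that the 2 genes share cannot be told apart without a strand setting. Around the other members the median lay near 0: it was 0.00 over 85 genes around TXNIP, -0.01 over 42 around ARRDC4, -0.01 over 158 around ARRDC2, 0.08 over 34 around ARRDC3 and -0.01 over 118 around MLXIP. After subtraction the change was 0.56 for TXNIP, 0.89 for ARRDC4 and -0.37 for ARRDC2.

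**Figure D4:**
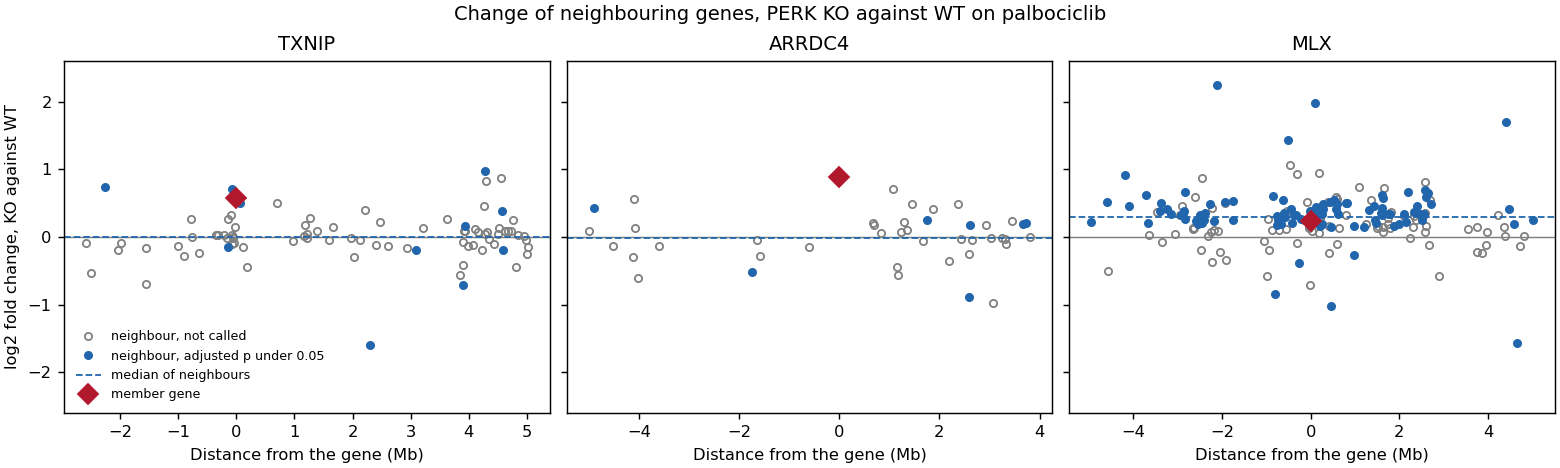
Log2 fold change of PERK KO against WT cells on palbociclib for tested genes within 5 Mb on either side of TXNIP, ARRDC4 and MLX, by distance from the gene; filled circles are genes called at an adjusted p under 0.05, the dashed line is the median of the neighbours and the diamond is the member. The median is 0.00 around TXNIP and -0.01 around ARRDC4, which lie above it, and 0.30 around MLX, which lies near it.

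Per kilobase of exon in GENCODE 29, a scale on which genes can be set beside each other, TXNIP was the most abundant member in KO cells on palbociclib, at 22.0 ± 5.2 CPM per kilobase. It was followed by MLX at 10.9, ARRDC4 at 8.93 ± 2.1, ARRDC3 at 8.26 ± 0.38, ARRDC2 at 1.87, MLXIP at 1.44 and MLXIPL at 0.0376. In WT cells on palbociclib TXNIP stood at 14.8 ± 6.0, MLX at 9.31, ARRDC3 at 7.93 ± 0.67, ARRDC4 at 4.84 ± 1.5, ARRDC2 at 2.43, MLXIP at 1.41 and MLXIPL at 0.0437 CPM per kilobase. In WT cells on vehicle MLX led at 10.6 ± 0.67, ahead of ARRDC3 at 8.43 ± 1.4, TXNIP at 2.65 ± 1.1, ARRDC2 at 2.42 ± 0.14, MLXIP at 1.28 ± 0.072, ARRDC4 at 1.22 ± 0.17 and MLXIPL at 0.0586 CPM per kilobase. Neighbours in these orders whose levels did not differ beyond their SDs were MLX with ARRDC4 and ARRDC4 with ARRDC3 in KO cells on palbociclib, TXNIP with MLX in WT cells on palbociclib, and TXNIP with ARRDC2 and MLXIP with ARRDC4 in WT cells on vehicle. By group means ARRDC4 thus moved up the order in the palbociclib groups and MLX kept one of the first 2 places. In KO cells on palbociclib the place of MLX ahead of ARRDC4 was within their SDs.

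Other genes known as targets of MondoA or ChREBP were divided between higher and lower. The list held 21 genes without the members, of which 16 were tested. Between KO and WT cells on palbociclib, 2 were called higher, 4 lower and 10 not, beside 27.9% of all genes called. The list's median log2 fold change was -0.03, against 0.01 over all genes. With the set as a block 4 of the 16 were higher and 5 lower, beside 36.4% of all genes called. FGF21, a hormone of the fasting response, fell most, to 1.15 ± 0.38 CPM in KO cells on palbociclib, against 4.90 ± 1.3 CPM in WT cells on palbociclib (-2.11 ± 0.25, edgeR, adjusted p = 2.6e-05). HK2, the hexokinase that phosphorylates glucose on entry, averaged 39.3 ± 4.5 CPM in KO cells on palbociclib, 60.2 ± 8.7 CPM in WT cells on palbociclib and 33.0 ± 1.9 CPM in WT cells on vehicle. It fell in the KO relative to WT cells on palbociclib (-0.62 ± 0.11, edgeR, adjusted p = 0.00163) and rose in WT cells on palbociclib relative to vehicle (0.87 ± 0.11, adjusted p = 8.83e-05). HK2 and ARRDC4 were thus called in opposite directions between KO and WT cells on palbociclib.

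RGS16, a regulator of G protein signalling, averaged 1.92 ± 0.32 CPM in KO cells on palbociclib and 3.12 ± 0.7 CPM in WT cells on palbociclib. It was called lower in the KO (-0.71, edgeR, adjusted p = 0.0102), a call lost without KO set 1 (-0.61, adjusted p = 0.0524) or WT palbociclib set 3 (-0.52, adjusted p = 0.0593). KLF10, a zinc finger repressor, averaged 136 ± 5.9 CPM in KO cells on palbociclib, 121 ± 6.4 CPM in WT cells on palbociclib and 105 ± 3.5 CPM in WT cells on vehicle. It was called higher in both comparisons (0.17, adjusted p = 0.02, and 0.21, adjusted p = 0.00269, edgeR). The first call was lost without KO set 2 (0.13, adjusted p = 0.114), WT palbociclib set 1 (0.13, adjusted p = 0.122) or WT palbociclib set 3 (0.15, adjusted p = 0.0691). PFKFB3, which makes an activator of glycolysis, had 43.0 ± 2.4 CPM in KO cells on palbociclib, 46.7 ± 2.9 CPM in WT cells on palbociclib and 51.7 ± 2.4 CPM in WT cells on vehicle. It missed the threshold in both (edgeR, adjusted p = 0.144 and 0.0524). It was called lower in both with the set as a block (adjusted p = 0.0486 and 0.0103). The first was called too without WT palbociclib set 3 (-0.19, adjusted p = 0.0291). So was the second with a library left out (-0.18, adjusted p = 0.0471, without WT palbociclib set 1, and -0.19, adjusted p = 0.0239, without vehicle set 3). ACLY, which makes cytosolic acetyl-CoA, was the other target called higher in the KO (0.19, edgeR, adjusted p = 0.0168). PNPLA3, a lipid remodelling enzyme, was the other called lower (-0.29, adjusted p = 0.0112; -0.25 and 0.0637 without WT palbociclib set 1).

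Between WT palbociclib and WT vehicle 3 of the 16 targets were called higher, HK2, KLF10 and PNPLA3 (0.52, edgeR, adjusted p = 3.6e-05), and 3 lower. The share called over all genes was 43.7%. The 3 lower genes were KHK, which phosphorylates fructose (-0.87, adjusted p = 0.000105), and the fatty acid synthesis genes FASN (-0.40, adjusted p = 5.43e-05) and SCD (-0.36, adjusted p = 7.59e-06). The block fit called 4 of the 16 higher and 5 lower, beside 50.3% of all genes.

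MLX also pairs with MNT and with some, not all, of the MXD repressors, which connect it to the MYC and MAX network. All 10 genes of that network list were tested. In WT cells on palbociclib, relative to vehicle, 6 were called higher and 4 lower, with a median log2 fold change of 0.21. Over all genes 43.7% were called in this contrast (21.3% higher, 22.3% lower). MXD4, a repressor of MYC target genes, showed the largest difference on the list, with 153 ± 7.2 CPM in KO cells on palbociclib, 136 ± 3.9 CPM in WT cells on palbociclib and 29.9 ± 4.1 CPM in WT cells on vehicle. It rose in WT cells on palbociclib relative to vehicle (2.18 ± 0.077, edgeR, adjusted p = 1.84e-11) and was not called between KO and WT cells on palbociclib (0.17, adjusted p = 0.0872). It was called higher in the KO with the set as a block (adjusted p = 0.00305), without vehicle set 1 (0.00909), with only the libraries compared (0.0107) and with no low-count filter (0.0247). MXD1 (0.79, adjusted p = 7.15e-05), MNT (0.23, adjusted p = 0.0102), MAX (0.19, adjusted p = 0.00179), MXI1 (0.42, adjusted p = 2.18e-06) and MYC (0.35, adjusted p = 2.7e-05) were also higher in WT cells on palbociclib than on vehicle. MYCL was lower there (-0.81, edgeR, adjusted p = 0.024), a call lost without WT palbociclib set 1 (adjusted p = 0.0707) or set 2 (adjusted p = 0.082) and without vehicle set 2 (adjusted p = 0.0631) or set 3 (adjusted p = 0.0682). MXD3 (-0.74, adjusted p = 1.08e-07), MGA (-0.36, adjusted p = 3.23e-05) and MYCN (-1.93, adjusted p = 0.000107), the last at 0.324 ± 0.16 CPM in WT cells on palbociclib and 1.27 ± 0.19 CPM in WT cells on vehicle, were lower too. Between KO and WT cells on palbociclib 1 of the 10 was called, beside 27.9% of all genes. That gene was MXD3, which averaged 34.3 ± 2.7 CPM in KO cells on palbociclib and 27.0 ± 1.3 CPM in WT cells on palbociclib (0.35, edgeR, adjusted p = 0.00126). With the set as a block MXD4 was called too, 2 of the 10, beside 36.4% of all genes.

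Of 20 genes of glucose transport and glucose 6-phosphate formation 12 were tested. In WT cells on palbociclib, relative to vehicle, 6 of them were called higher and none lower, with a median log2 fold change of 0.36. Over all genes 43.7% were called in this contrast (21.3% higher, 22.3% lower). The block fit called 8 of the 12 higher and none lower, beside 50.3% of all genes. SLC2A1, the transporter GLUT1 whose surface level TXNIP lowers, averaged 223 ± 16 CPM in KO cells on palbociclib, 185 ± 19 CPM in WT cells on palbociclib and 144 ± 9.8 CPM in WT cells on vehicle. It rose in WT cells on palbociclib relative to vehicle (0.36 ± 0.076, edgeR, adjusted p = 0.00157). It was also called higher in KO than in WT cells on palbociclib (0.27 ± 0.075, adjusted p = 0.0152), which was lost without KO set 2 (0.24, adjusted p = 0.0623) or KO set 3 (0.24, adjusted p = 0.0551). SLC2A3, the transporter GLUT3, averaged 32.3 ± 5.7 CPM in KO cells on palbociclib, 45.0 ± 9.1 CPM in WT cells on palbociclib and 30.2 ± 6.5 CPM in WT cells on vehicle. It missed the threshold in both comparisons (edgeR, adjusted p = 0.179 and 0.083). With the set as a block it was lower in KO than in WT cells on palbociclib (-0.47, adjusted p = 1.21e-08) and higher in WT cells on palbociclib than on vehicle (0.58, adjusted p = 7.1e-11). Limma-voom without the block called both as well (adjusted p = 0.0275 and 0.00505), and DESeq2 called the second (adjusted p = 0.0252). Reads of SLC2A3 and its near copy SLC2A14 may be divided in ways the counts do not show. SLC2A10 (0.77, edgeR, adjusted p = 1.57e-07), SLC2A14 (0.69, adjusted p = 0.00507), HK1 (0.17, adjusted p = 0.0132) and the phosphatase G6PC3 (0.37, adjusted p = 1.4e-05) completed the genes higher in WT cells on palbociclib than on vehicle. Between KO and WT cells on palbociclib 2 genes of the list were called higher, SLC2A1 and the urate transporter SLC2A9, and 1 lower, HK2. The share called over all genes was 27.9%. SLC2A9 averaged 0.406 ± 0.064 CPM in KO cells on palbociclib and 0.184 ± 0.067 CPM in WT cells on palbociclib (edgeR, adjusted p = 0.0419). There was 1 call on the list without KO set 3. With the set as a block 5 of its genes were higher and 3 lower, beside 36.4% of all genes called. SLC2A4, SLC2A6 and SLC2A11 were listed at 0 in all 9 libraries, and the rule by which reads were given to overlapping genes is not stated.

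**Figure D5:**
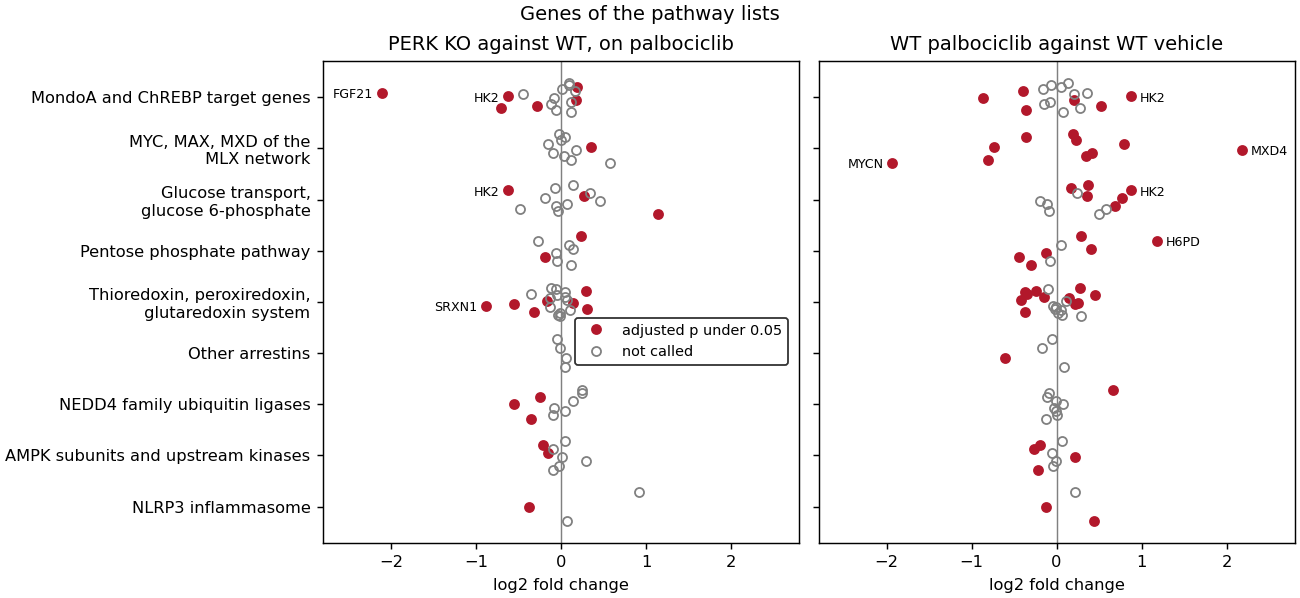
Log2 fold changes of the tested genes of 9 pathway lists, for PERK KO against WT cells on palbociclib (left) and WT palbociclib against WT vehicle (right); filled circles are genes called at an adjusted p under 0.05, and the vertical position within a list is only spacing. FGF21 (-2.11) lies farthest to the left among the KO changes, MXD4 (2.18) farthest to the right among the drug changes, and HK2 lies below 0 on the left (-0.62) and above 0 on the right (0.87).

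TXNIP's binding partner thioredoxin was not called in either comparison. TXN averaged 94.7 ± 6.2 CPM in KO cells on palbociclib, 104 ± 5.2 CPM in WT cells on palbociclib and 104 ± 6.5 CPM in WT cells on vehicle (KO against WT on palbociclib -0.13, edgeR, adjusted p = 0.099). It was called lower in the KO with the set as a block (adjusted p = 0.0345) and without WT palbociclib set 3 (-0.19, adjusted p = 0.0295). TXNRD1, which reduces thioredoxin, averaged 508 ± 42 CPM in KO cells on palbociclib, 514 ± 58 CPM in WT cells on palbociclib and 507 ± 62 CPM in WT cells on vehicle (KO against WT -0.02, edgeR, adjusted p = 0.936). The thioredoxin, peroxiredoxin and glutaredoxin system held 20 tested genes, with a median of -0.05 between KO and WT cells on palbociclib. Of these 3 were called higher and 4 lower in the KO, beside 27.9% of all genes called. With the set as a block 3 were higher and 7 lower, beside 36.4% of all genes called. SRXN1, which repairs overoxidized peroxiredoxins, fell to 3.40 ± 0.27 CPM in KO cells on palbociclib, against 6.27 ± 0.33 CPM in WT cells on palbociclib (-0.88 ± 0.12, edgeR, adjusted p = 6.68e-06). PRDX6, a peroxiredoxin that also acts on phospholipids, fell to 200.0 ± 5.7 CPM in KO cells on palbociclib, against 295 ± 5.8 CPM in WT cells on palbociclib (-0.56, adjusted p = 1.15e-08). TXNL1, a thioredoxin-like protein, was lower as well (-0.32, edgeR, adjusted p = 4.81e-05), as was PRDX4 (-0.17, adjusted p = 0.0227). The 3 genes called higher were the mitochondrial thioredoxin TXN2 (0.30, edgeR, adjusted p = 8.31e-05), the iron-sulfur glutaredoxin GLRX3 (0.29, adjusted p = 8.73e-05) and PRDX5 (0.14, adjusted p = 0.0278). Between WT palbociclib and WT vehicle 5 genes of the list were called higher and 6 lower, beside 43.7% of all genes called. The block fit called 6 higher and 6 lower there, beside 50.3% of all genes. The list's calls included NXN, the gene of nucleoredoxin (0.45, edgeR, adjusted p = 7.55e-07), and the mitochondrial peroxiredoxin PRDX3 (-0.42, adjusted p = 9.54e-06).

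ARRDC1, an alpha-arrestin known for driving the budding of vesicles from the plasma membrane, averaged 19.3 ± 1.7 CPM in KO cells on palbociclib, 18.7 ± 1.3 CPM in WT cells on palbociclib and 17.6 ± 1.1 CPM in WT cells on vehicle (KO against WT 0.04, edgeR, adjusted p = 0.749). Of the 4 other arrestins tested, none was called between KO and WT cells on palbociclib by edgeR with or without the set as a block. Between WT palbociclib and WT vehicle 1 was called. Over all genes 27.9% and 43.7% were called in these contrasts without the block. The arrestin called was the beta-arrestin ARRB2, at 28.9 ± 1.6 CPM in WT cells on palbociclib and 44.1 ± 0.93 CPM in WT cells on vehicle (-0.61, edgeR, adjusted p = 3.88e-07). Among the 9 ubiquitin ligases of the NEDD4 family, 3 were called lower and none higher in KO than in WT cells on palbociclib. Over all genes 27.9% were called in this contrast, and the list's median was -0.09. With the set as a block 2 ligases were higher, NEDD4 and HECW2, and 3 lower, beside 36.4% of all genes called. ITCH, a ligase that ubiquitinates TXNIP, fell to 22.6 ± 0.43 CPM in KO cells on palbociclib, against 26.9 ± 1.5 CPM in WT cells on palbociclib (-0.25, edgeR, adjusted p = 0.0039). NEDD4L fell to 52.6 ± 1.1 CPM in KO cells, against 77.1 ± 1.6 CPM in WT cells on palbociclib (-0.55, adjusted p = 2.7e-08). WWP2 fell to 67.1 ± 2.6 CPM in KO cells, against 85.8 ± 3.5 CPM in WT cells on palbociclib (-0.36, adjusted p = 3.74e-05). In WT cells on palbociclib relative to vehicle 1 of the 9 was called, beside 43.7% of all genes. That ligase was HECW1, which was higher (0.66, edgeR, adjusted p = 0.000657). WWP2 was called lower there with the set as a block (-0.12, adjusted p = 0.0164), without WT palbociclib set 1 (-0.16, adjusted p = 0.0429) and without vehicle set 2 (-0.16, adjusted p = 0.0476).

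Over the 9 libraries, the genes whose log2 CPM followed TXNIP most closely among the 11129 genes were SLC66A3 (Pearson r = 0.992), the lysosomal sterol carrier NPC2 (0.991), and RHPN1, ZFP36L1 and DYNC2LI1 (0.990 each). ARRDC4 came 24th by this measure with r = 0.982, and these values largely restate the order of the 3 groups, which all of these genes share. After the group means were removed, BNIP3L (0.990), DNAJC22 (0.989), CXCL14 (0.986), LOXL3 (0.985) and RPS15A (0.982) followed TXNIP most closely over the 9 deviations. ARRDC3 came 108th there with r = 0.933 and ARRDC4 246th with 0.894, while MLX had 0.452, MLXIP 0.345 and ARRDC2 -0.249. TXNIP rose from set 1 to set 2 to set 3 in every group, an order held by 286 of the 11129 genes. The correlations of deviations in part restate that order. The pattern of ARRDC4 was matched most closely by STYXL1 (0.997), PAPLN and FIBCD1 (0.995 each), and FKBP10 and SSC4D (0.994 each), and its deviations from group means by ZFP36L1 and HK2 (0.989 each), COL16A1 (0.984), COL20A1 (0.982) and KDM6B (0.976). All these values share the same libraries and their depth, and they are descriptions.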

How the data were processed

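Polyadenylated RNA of U2OS cells was sequenced in 9 libraries, 3 per group. The deposited values are raw read counts per gene, whole numbers with 1 column per library, not normalized. STAR 2.7.9a, DESeq2, Trim Galore, FastQC and CASAVA and the build hg38 are named, without a role, per the submitters' processing notes. The counting program, its use of strand and its annotation were not given in the sources used here. Counts were fitted with edgeR 4.0.16 in R 4.3.3 (with limma 3.58.1; tables and plots in Python 3.11.15 with matplotlib 3.10.9): quasi-likelihood F test with robust fitting, TMM factors, the default low-count filter (19408 genes, 99.91% of counts), a single model over the 3 groups (6 residual degrees of freedom), and Benjamini-Hochberg adjustment over all tested genes, called at 0.05. The biological coefficient of variation was 5.99%. Fold changes put the KO over WT and palbociclib over vehicle. Positions and exon lengths came from GENCODE 29 on GRCh38, promoters from RefSeq. The fitting script was tested on simulated counts. The members and the gene lists were chosen with earlier results of these data known.

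All replicate pairs differed by more than sampling noise, with a chi-square of 3.45 to 10.7 per degree of freedom. Deviations from group means of libraries with the same set number correlated at 0.176 to 0.541 over the 12932 genes whose mean log2 CPM exceeded 1 (9 of 9 pairs above 0.1), and those with different numbers at -0.401 to 0.0714. Over all 19408 tested genes the same-set values ran from 0.0296 to 0.223 (6 of 9 pairs above 0.1). Those with different numbers ran from -0.161 to 0.0439. In both gene sets all 9 libraries correlated best with their own set number in the other groups. By this last measure the set numbers paired the libraries, which no label states. The main model nevertheless has no set term, and the fit with the set as a block is the alternative printed beside results whose call it changes. Named genes were the members, EIF2AK3, HK2, SLC2A1, SLC2A3, PFKFB3, KLF10, TXN, TXNRD1, ITCH, MYC, MAX, MXD4, MNT and ARRDC1, beside 1 gene of the fixed list that is not reported here. Added were up to 3 called genes per list and contrast, those with the largest change and a mean of 1 CPM or more, and the 5 genes most correlated with TXNIP and with ARRDC4 by each measure. ACLY, FASN, SCD, MXI1, MGA, MYCN, HK1, G6PC3, SLC2A4, SLC2A6, SLC2A9, SLC2A11, TXN2, GLRX3, PRDX4, PRDX5, NEDD4, HECW2 and PSMC3IP were named after their values were seen. Alternatives were DESeq2 (1.42.0) and its size factors, upper-quartile factors, limma-voom, no low-count filter, only the libraries compared, the set as a block, leaving out each library, and subtraction of the neighbouring genes' median. Protein sequences were not used here.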

Additional observations from a re-analysis of the deposited data

How the results depend on the processing

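With the set number as a block, the fit that uses the pairing of libraries, 41 of the 89 tested genes of the 9 pathway lists (46.1%) were called between KO and WT cells on palbociclib, beside 36.4% of all genes. Without the block 24 were called (27.0%, and 18 to 26 when each library in turn was left out), beside 27.9% of all genes. Between WT palbociclib and WT vehicle 46 of the 89 were called without the block (51.7%), beside 43.7% of all genes. With the block 53 were called (59.6%), beside 50.3% of all genes. HK2, which is on 2 lists, was counted once. TXNIP became called between KO and WT cells on palbociclib with the block (log2 fold change 0.61) and with limma-voom (0.61, adjusted p = 0.0485). It missed the threshold in all other settings (0.34 to 0.92 with 1 library left out). ARRDC4 missed it with upper-quartile factors (0.89, adjusted p = 0.0505), with no low-count filter (0.87, adjusted p = 0.11), with only the libraries compared (0.88, adjusted p = 0.106) and without 7 of the 9 libraries in turn (0.70 to 1.13 over all 9). Subtracting the neighbouring genes' median turned MLX to -0.07, by construction of a median of 0.30 around it. ARRDC2 (-0.43 to -0.34) and MLX (0.21 to 0.24) kept their calls without any single library. Counts of called genes stayed within 1.5 times 5419 (KO against WT on palbociclib), 8478 (WT palbociclib against WT vehicle) and 10036 (KO palbociclib against WT vehicle) in every alternative. Apart from the block values printed beside each result, the block changed no other member's call. MLXIPL, with 6 to 13 counts per library, was too low for the test at this depth.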

Other observations

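H6PD, which supplies NADPH inside the endoplasmic reticulum, averaged 38.5 ± 5.2 CPM in KO cells on palbociclib, 46.2 ± 5.3 CPM in WT cells on palbociclib and 20.5 ± 2.6 CPM in WT cells on vehicle. It rose in WT cells on palbociclib relative to vehicle (1.18 ± 0.13, edgeR, adjusted p = 5.83e-05) and missed the threshold between KO and WT cells on palbociclib (edgeR, adjusted p = 0.151). It was called lower in the KO with the set as a block (-0.27, adjusted p = 8.05e-05) and, without the block, by DESeq2 (-0.28, adjusted p = 0.0313) and with no low-count filter (-0.28, adjusted p = 0.000328). RPIA, the pentose phosphate isomerase that forms ribose 5-phosphate, was lower in KO than in WT cells on palbociclib and in WT cells on palbociclib than on vehicle (-0.19, adjusted p = 0.0192, and -0.44, adjusted p = 2.73e-06, edgeR). The first was lost without KO set 2 (adjusted p = 0.0518), KO set 3 (adjusted p = 0.0645) or WT palbociclib set 2 (adjusted p = 0.0656).

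Of the 8 tested subunits and upstream kinases of AMP-activated kinase, 2 were called between KO and WT cells on palbociclib, both lower in the KO, beside 27.9% of all genes called in either direction, so the list's share lay near the background. The catalytic subunit PRKAA1 averaged 89.1 ± 2.2 CPM in KO cells on palbociclib, 103 ± 3.6 CPM in WT cells on palbociclib and 117 ± 3.1 CPM in WT cells on vehicle (-0.21, edgeR, adjusted p = 0.00259, and -0.19, adjusted p = 0.00322). The call of PRKAB1 (-0.16, edgeR, adjusted p = 0.0363) was lost without KO set 2 (adjusted p = 0.141) or KO set 3 (adjusted p = 0.075), and without WT palbociclib set 1 (adjusted p = 0.0755), set 2 (adjusted p = 0.0753) or set 3 (adjusted p = 0.063), and with no low-count filter (adjusted p = 0.072). NLRP3, the inflammasome sensor that TXNIP can bind, was too low for the test, and 3 of the 6 genes of its list were tested. IL18, an inflammasome substrate, fell to 159 ± 9.7 CPM in KO cells on palbociclib, against 207 ± 5.7 CPM in WT cells on palbociclib (-0.38 ± 0.051, edgeR, adjusted p = 1.03e-05). NEK7, a kinase that binds NLRP3, was higher in WT cells on palbociclib than on vehicle (0.44, edgeR, adjusted p = 3.14e-07), at 174 ± 6.9 CPM in WT cells on palbociclib and 128 ± 3.8 CPM in WT cells on vehicle.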
